A study of Blastobotrys raffinosifermentans with 8 samples.

Results

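The transcript response of the yeast *Blastobotrys raffinosifermentans* LS3 to gallic acid was examined at the later harvests of a shift experiment, 2 h and 5 h after the shift. These were chosen by harvest time and medium from the sample labels and comprised 4 of the 8 arrays of the series: 2 from cells in 1% glucose and 2 from cells in 1% glucose plus 0.5% gallic acid, with 1 array per medium and harvest time. All cells had grown overnight in YMM-glucose-NaNO3, were pelleted, and were moved to YMM-NaNO3 with one or the other carbon mixture in shaken flasks at 30 °C. Glucose was present in both media, so gallic acid was an addition and never the only carbon source. Total RNA was measured on one-colour arrays with up to 10 probes for each locus tag, the identifier that stands for a gene on the array.

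Gallic acid is a building block of tannins that few yeasts can use. In this species it is decarboxylated to pyrogallol, and catechol-1,2-dioxygenase, which opens the ring of such hydroxylated benzenes, acts further down the route towards central metabolism. Flavin-dependent hydroxylases can add hydroxyl groups to aromatic rings before they are opened. The files do not pair locus tags with gene names or functions, so tags are given by identifier, and only those to which the study's text gives a function are described by one. The letter after ARAD1, A to D, is the chromosome, and M is taken here as the mitochondrial genome.

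Of 6159 tags on the array, 5984 passed the filter on dim signals (1 probe or more well above background on 2 or more of the 4 arrays) and were compared, and 77.1% of them had 10 probes. A level is the log2 spot intensity after background correction and quantile normalization, taken as the median over the probes of a tag, and a ratio is the level with gallic acid plus glucose minus the level with glucose at the same time, so 1 is a doubling. In glucose 81.9% of the yeast spots were well above background at 2 h and 58.2% at 5 h, and with gallic acid 74.3% and 56.7%. Across tags, Pearson's r between the media was 0.967 at 2 h and 0.982 at 5 h, and 0.813 to 0.829 for pairs of arrays from different times. The 4 arrays lay on 1 slide and were scanned on 1 day, with each medium in its own row of the slide, so that medium and slide row cannot be told apart. The 10 spiked-in control RNAs gave a median ratio of -0.21 at 2 h and 0.45 at 5 h before normalization. The labels do not say whether the arrays came from separate cultures. With 1 array per medium and time there is no test within a time. A p-value over both times sets the mean ratio against the spread between 2 ratios, which may be technical. In limma that spread is drawn towards the spread over all tags, with 2.79 prior degrees of freedom against 1 residual. Each SE given with a mean ratio holds this borrowed spread too and is not that of the 2 ratios alone. In bulk RNA a difference in the share of cells with a transcript and in its amount per cell cannot be told apart.

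The first comparison asked which tags were higher or lower with gallic acid at both times. The strongest difference was that of ARAD1B07810g on chromosome B. In glucose it stood at 6.80 at 2 h and 7.05 at 5 h, and with gallic acid at 11.40 and 10.25. Both gallic acid arrays lay far above both glucose arrays, a 24.3-fold ratio at 2 h and a 9.21-fold ratio at 5 h. All 8 of its probes were higher with gallic acid at both times, and with these settings no tag compared had a larger ratio at either time. At offset 0 ARAD1A19800g was higher at 2 h (5.73 against 5.44) and ARAD1C45804g at 5 h (4.59 against 3.83). The mean log2 ratio of ARAD1B07810g was 3.90 (SE 0.36, n = 2 pairs of arrays, limma adjusted p = 0.153).

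A tag was counted at one time when its log2 ratio reached 1 or -1 and 80% or more of its probes pointed the same way. To count as responding, a tag needed ratios of 1 sign at both times, shared each time by 80% or more of its probes, and a ratio of that size at one or both times. By this rule 27 tags responded by being higher with gallic acid (0.451% of those compared) and 17 by being lower (0.284%). Of these, 13 were higher by at least 1 at both times (0.217%) and 4 were lower (0.0668%). Among tags with at least 4 probes, 27 responded by being higher and 15 by being lower. None of these counts carries a p-value. By sign and the probe rule alone, 353 of the 5984 tags compared were higher and 391 lower at both times, the responding tags included. A tag with 1 probe meets the probe rule whatever its ratio. How many tags would agree in this way without gallic acid was not tested.

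**Figure D1:**
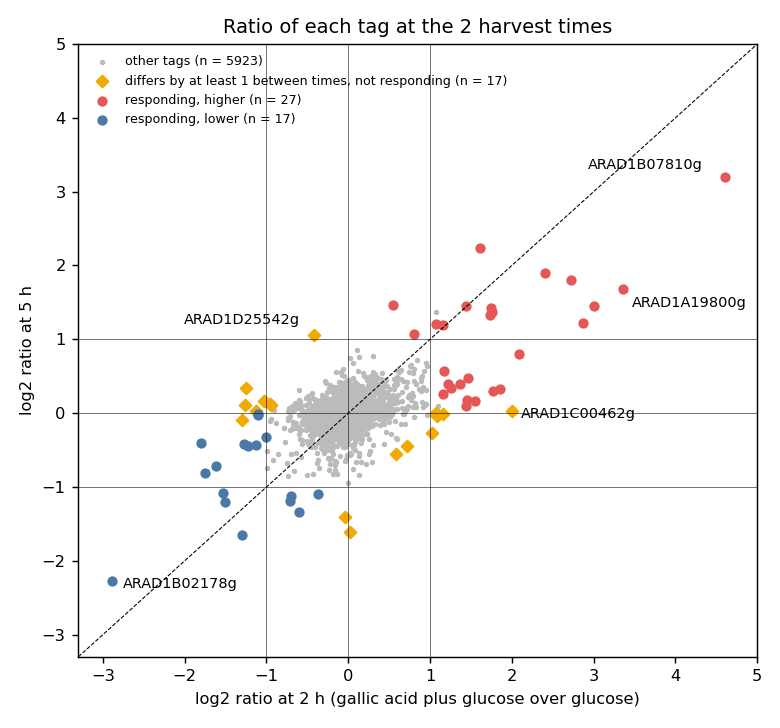
Log2 ratio of gallic acid plus glucose over glucose at 2 h (horizontal) against 5 h (vertical), 1 point per tag for 5984 tags; the dashed line marks equal ratios, and thin lines mark 0 and the size threshold of 1 each way. The 27 responding tags that were higher lie mostly below the dashed line, and ARAD1B07810g stands apart at 4.61 and 3.20.

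In glucose the 27 higher tags were about as bright as the array as a whole. Their levels had a median of 6.62 at 2 h and 6.62 at 5 h, against 6.49 and 6.48 over all tags. At 5 h in glucose 6 of the 27 had no probe well above background, and on the other 3 arrays each had at least 1. The 17 lower tags were brighter in glucose, with a median of 8.75 at 2 h and 8.57 at 5 h in glucose, and none of them was without a probe above background on any of the 4 arrays. The higher tags had a median ratio of 1.55 at 2 h and 1.20 at 5 h, and the lower tags -1.23 and -0.81. The rule chose these tags by these ratios, so they describe the groups and test nothing. The dimmest signal well above background was at 5.86 to 5.96 over the 4 arrays. A tag near the median level thus had little room to be lower by 1. The brightness of the lower tags in glucose is therefore in part built into the choice.

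ARAD1A19800g, on chromosome A, had the next highest mean ratio. Its glucose levels were 5.93 at 2 h and 6.08 at 5 h, with 1 and 0 of 10 probes well above background. With gallic acid it reached 9.28 and 7.75, with all 10 probes above background at both times. Without gallic acid this tag was thus at or near the background, and its ratio depends on how background is treated. The ratio was 3.36 at 2 h (10.2-fold) and at least 3.20-fold at 5 h, where the glucose level was only a bound, set by the higher of the tag's own signal and the dimmest signal well above background. At offset 0, which leaves out the constant that damps dim signals, its log2 ratios were 5.73 and 3.28.

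Among the lower tags ARAD1B02178g, on chromosome B, stood out. It was at 8.88 in glucose at 2 h and 8.80 at 5 h, and at 5.99 and 6.53 with gallic acid. The glucose arrays differed by little, and both gallic acid arrays lay well below them, with 2 of 10 probes above background at 2 h and 8 at 5 h. The tag was 7.40-fold lower at 2 h and 4.84-fold lower at 5 h, with a mean log2 ratio of -2.58 (SE 0.17, n = 2 pairs, limma adjusted p = 0.138). At offset 0 its ratios were -4.95 and -3.23.

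ARAD1D10384g, on chromosome D, was the next lowest. It was at 8.75 in glucose and at 7.45 in the gallic acid medium at 2 h, and at 10.52 and 8.87 at 5 h. Both media were higher at 5 h than at 2 h, so the levels of the media overlapped across times although gallic acid was lower within each. The ratios were -1.31 and -1.65, with all 10 probes above background on every array.

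In these 2 lower tags and in ARAD1B07810g the probes did not agree on the size. Probes of ARAD1B07810g that start further along the tag had larger ratios, from 1.58 for the probe starting at position 26 to 5.45 for that at 628 at 2 h, and from 0.80 to 3.95 at 5 h. In ARAD1B02178g the probe starting at position 10 was higher with gallic acid, by 0.63 at 2 h and 0.35 at 5 h, while the other 9 probes were lower, down to -4.58 and -3.05 at position 773. That first probe was also the brightest of the tag over the 4 arrays, and a count by the brightest probe alone therefore turned the mean ratio of this tag to 0.49. ARAD1D10384g ran from 0.29 at position 3 to -1.62 at position 992 at 2 h. Spearman's rho between probe position and the size of the ratio at 2 h was 0.976 for ARAD1B07810g (8 probes), 0.879 for ARAD1B02178g and 0.988 for ARAD1D10384g (10 probes each). The probes of ARAD1B07810g and ARAD1D10384g also brightened along the tag, with rho of 1 and 0.988 between position and mean level, whereas rho was 0.309 for ARAD1B02178g. Not every responding tag showed this pattern, but as a group they leaned towards it more than all tags did. Over the 35 responding tags with at least 8 probes the median rho was 0.515 at 2 h and 0.20 at 5 h, positive in 22 and 21 of them, and over all 5074 such tags it was 0.0667 and 0.0303. These tags were picked for this description after their values were seen. The part of probe position or brightness in the ratios was not tested.

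**Figure D2:**
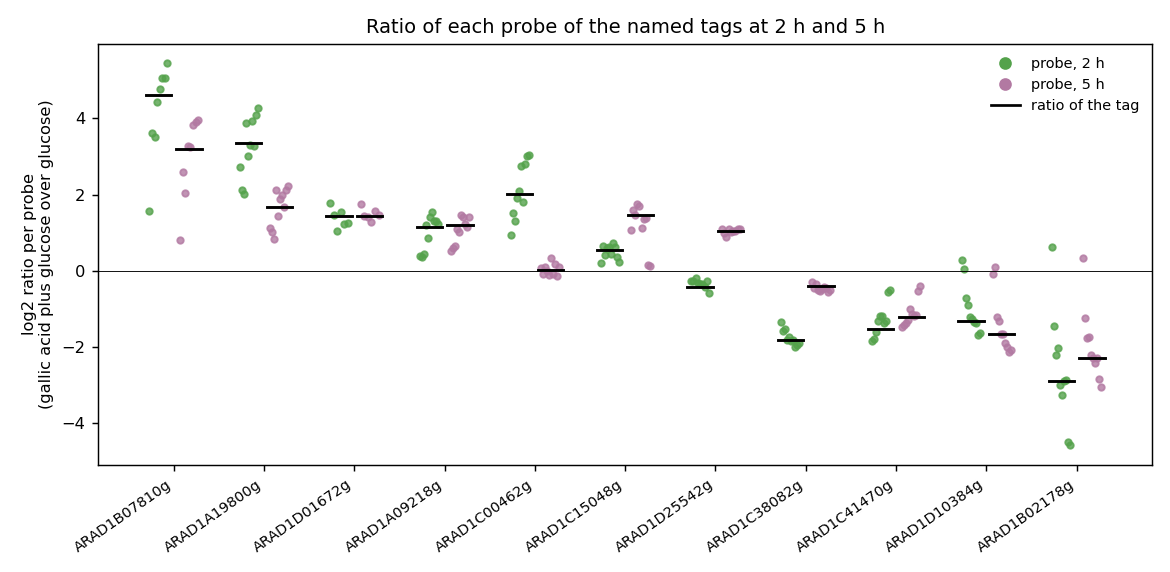
Log2 ratio of each probe (points, in order of position from left to right within a cluster) at 2 h and 5 h for 11 named tags; black lines give the ratio of the tag. In ARAD1B07810g and ARAD1B02178g the probes spread over several log2 units in order of position, and in ARAD1D25542g all 9 lie close together on either side of 0.

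The responding tags lay on all 4 chromosomes. They made up 0.719% of the tags compared on chromosome A, 0.486% on B, 0.774% on C and 0.755% on D, and none of the 31 tags with the letter X responded. The other 2, ARAD1M90130g and ARAD1M90160g, were lower and had the letter M, out of 34. Each has 1 probe, so the rule on the share of probes says nothing there, and their 5 h ratios were -0.02 and -0.01. With 6 responding tags on A and 5 on B the shares per chromosome are rough.

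A linear model over the 4 arrays (limma, medium plus harvest time, 1 residual degree of freedom) tested the mean of the 2 ratios. No tag passed a Benjamini-Hochberg adjusted p of 0.05 (0% of the tags compared), and the lowest adjusted p was 0.113. Unadjusted, 510 of the 5984 tags compared had a limma p below 0.05, 238 higher and 272 lower. Other treatments of the same arrays did give calls: 27 at offset 0, 24 with the authors' log2 table, 20 with a trended and robust prior, 12 with median scaling, 6 with the processed signal and 1 with the brightest probe. Of the 28 tags called by offset 0, the authors' table, the trended prior or median scaling, 20 were among the responding tags. The 10 called by all 4 of these were all responding. Of all tags compared, 0.451% responded by being higher and 0.284% by being lower. The calls and the responding rule rest on the same ratios, so this overlap tests nothing.

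The 2 tags with the lowest p on the higher side had nearly equal ratios at both times. ARAD1D01672g was at 6.92 in glucose and at 8.36 in the gallic acid medium at 2 h, and at 7.35 and 8.81 at 5 h. Both gallic acid arrays lay above both glucose arrays, and all 6 probes were higher at both times. Its ratios were 1.44 and 1.45, with a mean of 1.45 (SE 0.05, n = 2 pairs, limma adjusted p = 0.113, and 0.00365 to 1 over the alternatives). ARAD1A09218g was at 6.98 and 8.14 at 2 h, and at 7.34 and 8.54 at 5 h. Its ratios of 1.16 and 1.20 gave a mean of 1.18 (SE 0.06, limma adjusted p = 0.131). On the lower side ARAD1B02178g came first and ARAD1C41470g next, at 8.80 in glucose and at 7.29 in the gallic acid medium at 2 h and at 9.13 and 7.92 at 5 h. All 10 of its probes were lower at both times, and its mean ratio was -1.36 (SE 0.10, limma adjusted p = 0.138). The ratios of ARAD1B07810g were larger but 1.40 apart, and its p was higher than those of these tags.

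**Figure D3:**
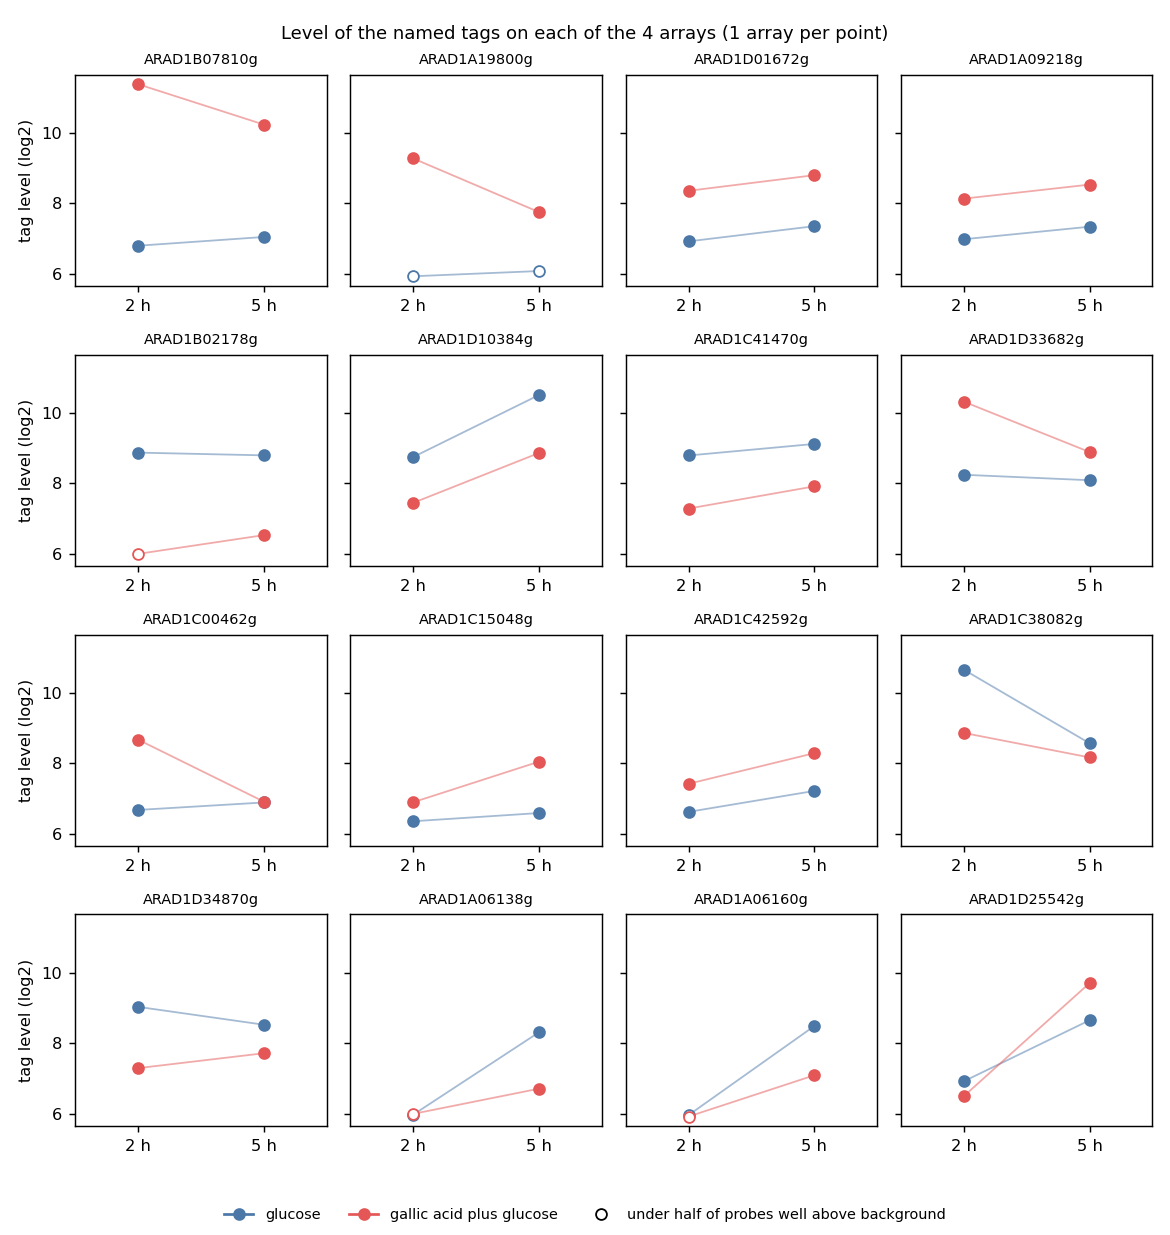
Tag level (log2) on each of the 4 arrays for 16 named tags, with 1 array per point, 2 h and 5 h on the horizontal axis and glucose and gallic acid plus glucose in separate colours; open points have fewer than 0.5 of their probes well above background. The upper panels keep the media apart at both times, whereas ARAD1C00462g and ARAD1C38082g are apart at 2 h and close at 5 h, and ARAD1A06138g is apart at 5 h only.

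The next comparison set the times side by side. At 2 h 32 tags were higher by the size rule (0.535% of those compared) and 18 lower (0.301%). Of these 18, 6 were putative mitochondrial tags (letter M) with 1 probe each. At 5 h 16 were higher (0.267%) and 10 lower (0.167%). Ratios were also more spread at 2 h, with an SD of 0.242 over all tags against 0.18 at 5 h. The 2 sets of ratios share no array. Of the 50 tags counted at 2 h, 43 had the same sign at 5 h, and of the 26 counted at 5 h, 24 had the same sign at 2 h, against 55.8% of all tags with the same sign at both. No tag was counted in opposite directions at the 2 times. Across the 5984 tags the ratios of 2 h and 5 h correlated with Pearson's r of 0.502 and Spearman's rho of 0.219, and tags are not independent replicates. With the scanner's processed signal, set to a common 75th percentile, the median ratio of all tags at 2 h moved to -0.12, and lower tags outnumbered higher ones there (171 against 105). At 5 h that scaling gave 102 higher and 68 lower, and offset 0 gave 35 higher and 41 lower. Fewer spots were well above background at 5 h (58.2% in glucose and 56.7% with gallic acid) than at 2 h (81.9% and 74.3%). With only probes well above background, 32 tags were higher and 18 lower at 2 h, and 31 and 14 at 5 h. The part of dim signals in the difference between the times was not tested.

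Among the 27 higher responding tags the ratio was larger at 2 h in 21, and among the 17 lower tags it was larger in size at 2 h in 12. In the smaller set past the size at both times, 9 of 13 and 3 of 4 were larger at 2 h. More tags met the size rule at 2 h, so this lean is in part built into the choice.

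Some tags met the size rule at 2 h only, 19 higher and 14 lower, and 6 of the 14 were putative mitochondrial tags. The highest was ARAD1D33682g, on chromosome D, at 8.25 in glucose and at 10.33 in the gallic acid medium at 2 h, and at 8.09 and 8.89 at 5 h. Its glucose levels were steady, and the level with gallic acid was nearer to glucose at 5 h than at 2 h, with ratios of 2.08 and 0.80 and all 10 probes higher at both times. ARAD1C00462g, on chromosome C, was at 6.68 and 8.68 at 2 h and at 6.89 and 6.91 at 5 h. Here the media were 4.01-fold apart at 2 h and level at 5 h, where 5 probes were higher and 5 lower.

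The lowest at 2 h only were ARAD1C38082g and ARAD1D34870g. ARAD1C38082g was at 10.67 in glucose and at 8.87 in the gallic acid medium at 2 h, and at 8.58 and 8.17 at 5 h, so its glucose level was lower at 5 h and nearer to that with gallic acid. All 10 probes were lower at both times, with ratios of -1.81 and -0.40 and an SD over probes of 0.206 and 0.0804. ARAD1D34870g was at 9.04 and 7.30 at 2 h and at 8.53 and 7.72 at 5 h, with ratios of -1.75 and -0.81.

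At 5 h only, 3 tags were higher and 6 lower by the size rule. ARAD1C15048g was at 6.35 in glucose and at 6.89 in the gallic acid medium at 2 h and at 6.59 and 8.05 at 5 h. Its ratio was thus larger at the later time, 0.54 and then 1.46, with all 10 probes higher at both. ARAD1C42592g was at 6.62 and 7.42 at 2 h and at 7.22 and 8.29 at 5 h, and its 2 ratios of 0.80 and 1.08 fell on either side of the threshold by little.

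The lowest 2 of the tags counted at 5 h only were neighbours in tag order on chromosome A. ARAD1A06138g was at 5.97 in glucose and at 5.99 in the gallic acid medium at 2 h, with no probe well above background in either, and at 8.32 and 6.71 at 5 h. ARAD1A06160g was at 5.96 and 5.92 at 2 h, with 2 of 9 probes above background in each, and at 8.50 and 7.09 at 5 h. Both were thus dim in both media at 2 h and bright at 5 h, more so in glucose, 3.05-fold for ARAD1A06138g and 2.64-fold for ARAD1A06160g. At 2 h no ratio can be read for the first.

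The change of the ratio between the harvests was counted when it was at least 1 in size over at least 80% of the probes. By this rule 19 tags had a higher ratio at 2 h than at 5 h (0.318%) and 11 a lower one (0.184%). Of the 11, 8 had fewer than 4 probes, since among tags with at least 4 probes 19 and 3 were counted, a restriction chosen after the data were seen. All 8 were putative mitochondrial tags (letter M) with 1 probe each, a group described below. With the processed signal the split was 105 and 299. The contrast leaves no residual degree of freedom, so it has no test. The largest differences were those of ARAD1C00462g, 1.98 with all 10 probes positive, and ARAD1A19800g, 1.68 with all 10. The lowest among tags with at least 4 probes were those of ARAD1D25542g, -1.48, and ARAD1C38082g, -1.40.

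ARAD1D25542g, on chromosome D, was the clearest case of opposite signs. It was at 6.92 in glucose and at 6.50 in the gallic acid medium at 2 h, and at 8.66 and 9.72 at 5 h. All 9 probes were lower with gallic acid at 2 h and all 9 higher at 5 h, with ratios of -0.42 and 1.06, and all 9 were well above background on each of the 4 arrays. Both media stood higher at 5 h than at 2 h, with gallic acid by more.

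The size rule was met at some time by 59 tags. Of 5978 pairs of adjacent tags in tag order, 8 (0.134%) had both tags past the rule at some time, all 8 in the same direction, 4 of them outside the putative mitochondrial tags. Besides ARAD1A06138g and ARAD1A06160g these were the run of ARAD1D17754g, ARAD1D17776g and ARAD1D17798g and the pair of ARAD1C45782g and ARAD1C45804g, named here after their values were seen. Tag order stands in for gene order, which was not checked.

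In the run on chromosome D the first tag was the highest. ARAD1D17754g was at 6.14 in glucose and at 9.01 in the gallic acid medium at 2 h, and at 6.07 and 7.29 at 5 h, where none of its probes was above background in glucose and the ratio was at least 2.33-fold. ARAD1D17776g was at 6.05 and 7.52 at 2 h and at 6.10 and 6.58 at 5 h. ARAD1D17798g was at 5.92 and 7.14 at 2 h and at 5.99 and 6.39 at 5 h. In glucose the levels of all 3 were low. There 7, 5 and 4 of their 10 probes were well above background at 2 h, and 0, 1 and 2 at 5 h. All 3 were higher with gallic acid at both times, and closer to glucose at 5 h. The tag before them, ARAD1D17732g, had ratios of 0.95 and 0.12 and did not reach the size.

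On chromosome C the 2 neighbours took different courses. ARAD1C45782g was at 5.88 in glucose and at 7.25 in the gallic acid medium at 2 h and at 5.97 and 6.37 at 5 h. ARAD1C45804g was at 5.97 and 7.58 at 2 h and at 5.90 and 8.13 at 5 h. In glucose 1 and 0 of 10 probes of the first were well above background, and 3 and 1 of the second. The log2 ratio of the first was 1.36 at 2 h, and it was at least 1.32-fold higher at 5 h, and the log2 ratios of the second were 1.61 and 2.23. At offset 0 the log2 ratios were 3.50 and 1.36 for ARAD1C45782g, and 3.47 and 4.59 for ARAD1C45804g. Near ARAD1A19800g, the next tag, ARAD1A19822g, had ratios of 0.50 and 0.08, and the one after, ARAD1A19844g, had 1.15 and -0.01, so that of these 3 tags ARAD1A19800g alone met the size rule at 5 h. These next tags too were named after their values were seen, and at 5 h each had 1 of 10 probes above background in each medium. ARAD1C26070g, also named after its values were seen, differed from most higher tags in that both media were higher at 5 h than at 2 h. It was at 6.96 in glucose and at 9.37 in the gallic acid medium at 2 h and at 8.49 and 10.39 at 5 h, with ratios of 2.41 and 1.90 over 10 of 10 probes.

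Some tags have a function or a candidate function in the degradation route, by the study's text. The gene of gallic acid decarboxylase was not analysed here. The others numbered 9, and 8 passed the filter on dim signals and were compared. None met the responding rule and none was past the size at either time. None passed limma's adjusted p, and 1 had an unadjusted p below 0.05. Their median ratio was 0.06 at 2 h and -0.01 at 5 h, against -0.01 and 0.00 over all tags. These counts and medians take in ARAD1C08558g and ARAD1A17402g, which stayed at the background, and ARAD1D18458g, which was near it at 5 h. They therefore do not show that the route as a whole was level between the media. Apart from ARAD1A17402g, picked by protein similarity, the candidate hydroxylases come from the study's arrays of cells given protocatechuic acid, which is close to gallic acid in structure.

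ARAD1D18458g is the tag of *ACDO1*, which encodes catechol-1,2-dioxygenase. It was at 7.15 in glucose and at 7.12 in the gallic acid medium at 2 h, and at 6.12 and 6.11 at 5 h. All 10 probes were well above background in both media at 2 h, where the media were level, but 1 of 10 in each at 5 h, so that no ratio can be read there. Its first probe starts at position 815 and its last at 1618, which runs past the length of the reading frame that the study describes, so it is uncertain how much of the transcript they report. The mean ratio was -0.02 (SE 0.05, n = 2 pairs, limma adjusted p = 0.949), which takes in the 5 h ratio that cannot be read. The study states that gallic acid induces *ACDO1*, from quantitative PCR and microarrays. The microarrays it cites for gallic acid are the series examined here, of which the earlier harvests were not examined. They are thus not separate evidence from the values above. The PCR of the study used another strain with gallic acid as the only carbon source, and expression there was highest later than 5 h.

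ARAD1D18502g, annotated in the study as a phenol hydroxylase, an enzyme that adds a hydroxyl group to phenols, was at 8.19 and 8.29 at 2 h and at 8.69 and 8.85 at 5 h. It was bright in both media and differed by 0.10 and 0.16, with 4 of its 6 probes higher at each time. Its probes start within positions 1 to 421.

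Of the candidate hydroxylases ARAD1C00330g had the largest ratio. It was at 5.90 in glucose and at 6.74 in the gallic acid medium at 2 h, and at 5.91 and 6.63 at 5 h. In glucose it was near the background, with 2 and 0 of 10 probes above it, and with gallic acid 10 and 9 were. All 10 probes were higher at both times, with a ratio of 1.78-fold at 2 h and at least 1.59-fold at 5 h, and the mean log2 ratio was 0.78 (SE 0.06, limma adjusted p = 0.138). Over the alternatives its mean ratio ranged from 0.72 to 3.50. It was 2.41 at offset 0 (limma adjusted p = 0.00182), 3.50 with the processed signal (0.0286) and 1.36 with the authors' log2 table (0.0143), against adjusted p of up to 1 without harvest time in the model, and under each of these 3 settings it met the responding rule.

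ARAD1C03498g lay the other way at 2 h, at 8.61 in glucose and 7.87 with gallic acid, and was at 6.97 and 6.87 at 5 h. All 10 probes were lower at 2 h and 8 of 10 at 5 h, with ratios of -0.74 and -0.10. ARAD1D18392g was at 6.67 and 6.81 at 2 h and at 6.76 in both media at 5 h, and ARAD1D27984g at 7.22 and 7.42 at 2 h and at 8.10 and 7.97 at 5 h. Both differed by 0.20 or less in size at each time. The other 3 candidates stayed at the background on all 4 arrays, between 5.83 and 6.04: ARAD1C08558g, with at most 3 of 10 probes above background on an array, ARAD1A17402g, with at most 1 of 10, and ARAD1C08580g, with 1 of its 3 probes above it on 1 array, which was not compared. No response can be read from these at this signal.

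**Figure D4:**
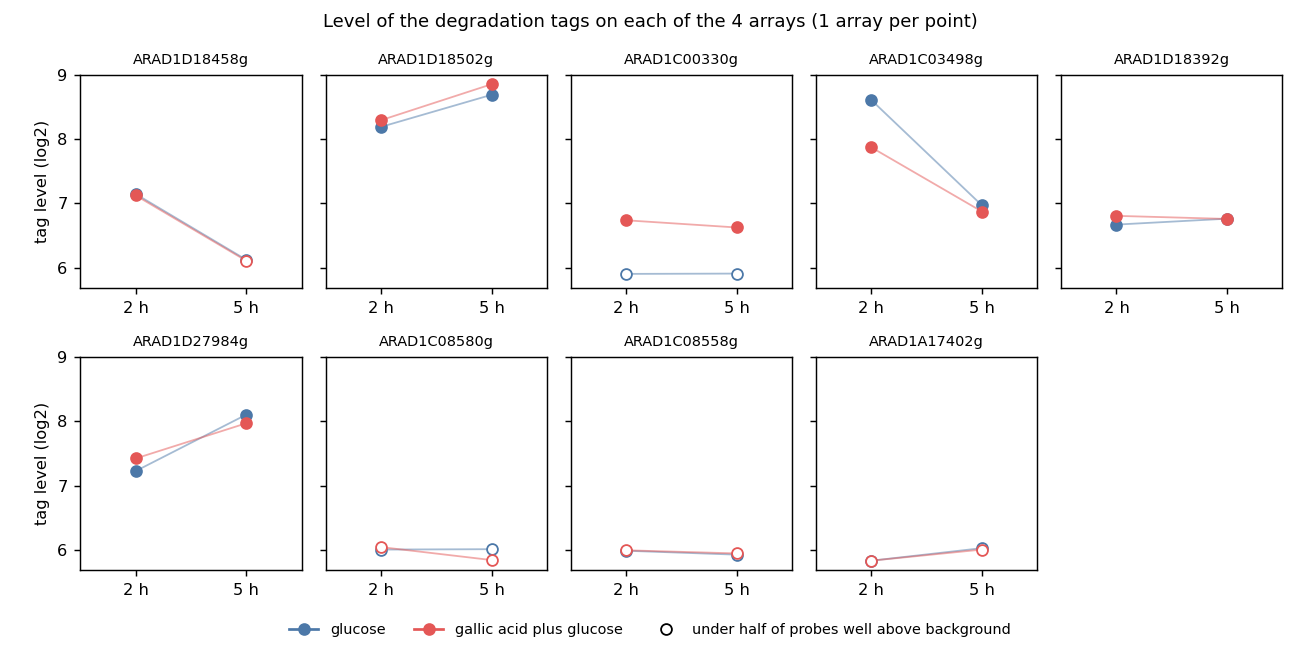
Tag level (log2) of the 9 tags of the degradation route, on each of the 4 arrays, with 1 array per point and open points where fewer than 0.5 of the probes were well above background. ARAD1C00330g is apart at both times, ARAD1C03498g at 2 h, and 3 tags lie at the background throughout.

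The putative mitochondrial tags (prefix ARAD1M) were lower with gallic acid at 2 h as a group and close to glucose at 5 h. Mitochondria carry a small genome of their own that encodes subunits of the respiratory chain and RNAs of their translation machinery. Of 36 such tags 34 were compared. At 2 h 33 of the 34 were lower with gallic acid, against 55.6% of all tags, with a median ratio of -0.47 and a range of -1.27 to 0.01. At 5 h 13 of the 34 were lower, against 49.5% of all tags, with a median of 0.06 and a range of -0.25 to 0.35. By the size rule 6 were lower at 2 h and 0 at 5 h. In 31 of the 34 the ratio was lower at 2 h than at 5 h, and the median difference was -0.58 against -0.01 over all tags. The harvests are 1 pair of arrays each, so this difference was not tested. None of the 34 passed limma's adjusted p over both times, where the lowest was 0.364, and 2 had an unadjusted p below 0.05.

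The median level of these tags was 7.16 in glucose and 6.57 in the gallic acid medium at 2 h, and 7.03 and 7.05 at 5 h. The array of gallic acid at 2 h was thus the low one of the 4. The lowest ratios at 2 h belonged to a stretch of 8 tags in order, ARAD1M90120g to ARAD1M90190g, with a median of -1.11 at 2 h and 0.07 at 5 h. Each of the 8 has 1 probe, so the rule on the share of probes says nothing there. Of the 34 tags 18 have 1 probe, with a median ratio of -0.74 at 2 h, and the 16 with more have -0.26, of which 15 were lower.

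The 2 lowest differences between the harvests were in that stretch. ARAD1M90190g was at 8.51 in glucose and at 7.26 in the gallic acid medium at 2 h, and at 7.91 and 8.25 at 5 h. ARAD1M90170g was at 8.43 and 7.16 at 2 h, and at 7.69 and 7.79 at 5 h. In both the media were over 1 log2 unit apart at 2 h and close at 5 h. The 2 highest differences were small: ARAD1M90320g had ratios of -0.03 and -0.16, at levels of 6.04 to 6.37 near the background, and ARAD1M90200g, whose 10 probes were all above background on each array, had 0.01 and -0.05. The group was lower at 2 h under every alternative tried, by a median of -0.35 to -1.01 over the alternatives. The part of slide row or of the amount of RNA in this was not tested.

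**Figure D5:**
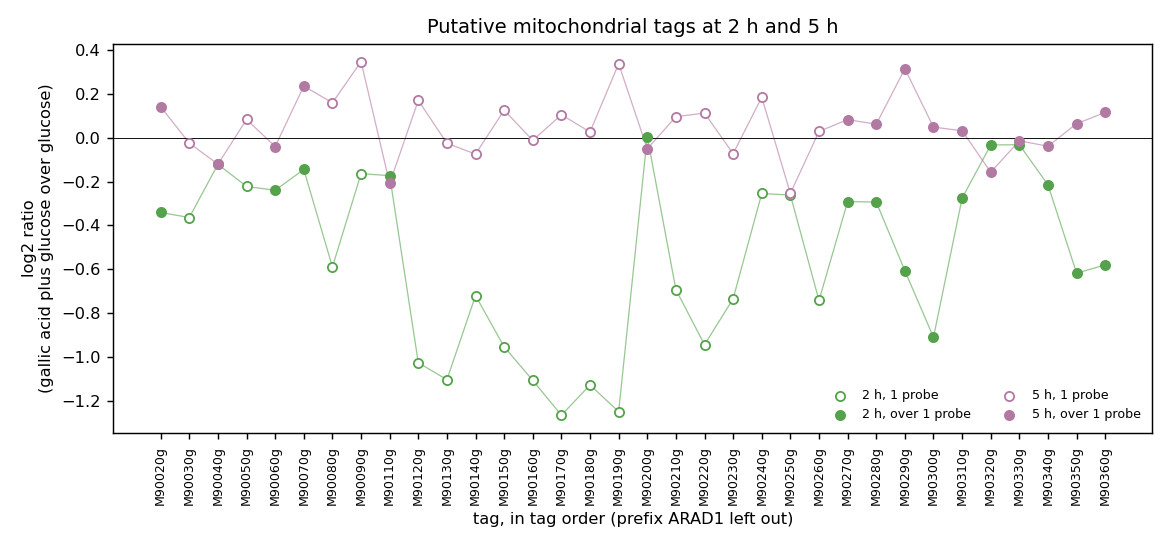
Log2 ratio of gallic acid plus glucose over glucose for the 34 putative mitochondrial tags in tag order at 2 h and at 5 h; open points are tags with 1 probe. At 2 h 33 of the 34 points lie below 0, lowest in the stretch from M90120g to M90190g, and at 5 h they scatter around 0 between -0.25 and 0.35.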

How the data were processed

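The scanner files, deposited by the authors from Agilent Feature Extraction 11.5.1.1, hold intensity values per spot (median spot and local background signal, processed signal) and flags for spots well above background, saturated or outlying (deposited as other values of 0 or 1). A second deposited file, the authors' table, holds log2 values that were normexp-corrected and quantile-normalised in limma over all 8 arrays; its offset is not given in the sources used here, and its column medians were 5.63 to 5.64 at 2 h and 5 h. Apart from values taken from the authors' table, only the 4 arrays of 2 h and 5 h entered any value, by the labels.

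The median spot signals were corrected for local background by normexp with an offset of 50 over every spot (limma 3.58.1, R 4.3.3). The 1439 control spots of 62976 and 1 probe without a tag were left out, the 4 arrays were quantile-normalised, and spots of a probe were averaged. Outlier spots were left out (0 to 6 per array), none was saturated, and the number of arrays limits precision. A tag's level is the median of its probes, and 56311 probes covered 6159 tags. The offset shrinks ratios of dim tags. The fit was medium plus harvest time with Benjamini-Hochberg adjustment over 5984 tags. Harvest time is a block, since the change from 2 h to 5 h correlated between media with r = 0.924. Named tags had at least 4 probes and were the 2 highest and 2 lowest of each comparison (by mean ratio, ratio at 1 time, difference or p), plus the study's degradation tags and the 2 highest and lowest differences among mitochondrial tags; others are marked as named after their values were seen. Bounds use the means described with them. The code was run on simulated data with planted changes, which checks the computation and not the number of calls in these data. Members, lists and rules were chosen with earlier results of these data known. Alternatives were the processed signal minus its 75th percentile, offset 0, median scaling, the authors' log2 table, mean or brightest probe, probes well above background only, no or a stricter filter, Bonferroni, a trended and robust prior, no block, a 1.5-fold size, other shares of probes, and leaving out arrays. The 15 min and 30 min arrays were not used here.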

Additional observations from a re-analysis of the deposited data

Results flagged for a closer look

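Groups of 2 arrays are too small for a test of outlying samples, so the only results singled out are tags with 4 probes or more whose ratio changed sign between 2 h and 5 h by at least 1 on the log2 scale, with at least 80% of their probes on each side. These differences were not tested. For ARAD1D25542g, described above, the ratio at 2 h minus that at 5 h was -1.48. For ARAD1A06138g it was 1.63, but the tag was at the background in both media at 2 h. The other 3 lie on chromosome D, each with 10 probes. ARAD1D34496g was at 7.31 in glucose and at 8.33 in the gallic acid medium at 2 h and at 7.87 and 7.60 at 5 h, a difference of 1.30. ARAD1D43890g was at 7.56 and 8.28 at 2 h and at 7.67 and 7.23 at 5 h, a difference of 1.16. ARAD1D25146g was at 7.43 and 8.01 at 2 h and at 7.95 and 7.40 at 5 h, a difference of 1.13. In these 3 tags the level in glucose was higher at 5 h than at 2 h and the level with gallic acid lower. The putative mitochondrial tags had a median difference of -0.58, from a median ratio below 0 at 2 h to one just above 0 at 5 h.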

How the results depend on the processing

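Counts depended on the background treatment, the scaling, the choice of probe and the size threshold. Against 50 tags at 2 h, 26 at 5 h, 44 responding, 17 past the size at both times and 30 in the contrast, the processed signal gave 276, 170, 174, 55 and 404, offset 0 gave 142, 76, 120, 31 and 132, the brightest probe 138, 111, 141, 34 and 194, and a 1.5-fold size 161, 73, 134, 35 and 141. The authors' log2 table gave 95 at 2 h, 84 responding and 67 in the contrast, and probes well above background only gave 45 at 5 h. In the contrast the processed signal counted 105 higher and 299 lower, against 19 and 11. At 5 h 29 were higher and 44 lower at 1.5-fold. By 1 time alone, 26 tags (5 h) to 50 tags (2 h) were counted in place of 44 responding. Of the 44, 42 were also counted with the processed signal, 44 at offset 0, 44 with the authors' log2 table and 38 with the brightest probe. The other count alternatives stayed within 1.5 times.

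The fit called 0 tags, and 6 with the processed signal, 27 at offset 0, 12 with median scaling, 24 with the authors' log2 table, 1 with the brightest probe and 20 with the trended and robust prior. Without harvest time as a replicate block it called 0 (66 at an unadjusted p below 0.05), and again 0 with each array left out in turn from that fit. The putative mitochondrial median was -0.97 at 2 h with the processed signal and -1.01 at offset 0, and its difference between times -1.12 and -1.03.

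Some mean ratios changed sign, most of them near 0. The mean ratio was -0.23 for ARAD1C08558g with the processed signal and -0.0359 with probes above background only. For ARAD1A17402g it was 0.17 with the processed signal, 0.0355 with median scaling, 0.0209 with the mean of probes, and 0.12 with the brightest probe and with probes above background only. For ARAD1D27984g it was -0.0196 with median scaling, -0.0454 with the mean of probes and -0.0314 with the brightest probe. With the brightest probe it was 0.49 for ARAD1B02178g (reported at -2.58), 0.0105 for ARAD1M90320g, -0.0929 for ARAD1A19822g and -0.0139 for ARAD1D18392g. Leaving out probes whose name ends in X, an alternative chosen after seeing the data, kept all 44 responding tags. The causes were not tested. Signal over background limits ratios at 5 h, where 58.2% of spots or fewer were well above it.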
